A study of Mus musculus with 29 samples.

Results

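Gene expression was compared between 18 and 15 wks of age in prostates of OPN-/-TRAMP mice that had no palpable tumor and did not fall into the early neuroendocrine class. These prostates were 13 of the 29 in the series, 9 of 18 wks old mice (OPT18) and 4 of 15 wks old mice (OPT15). They were chosen by their labels as OPT18 or OPT15 prostates, free of palpable tumor, of the early class Reliquia. That class was read as Early-ADC and the class Ineuntes as Early-NE, from the number of prostates the study places in each, and each array was of 1 male mouse. The question was whether prostates without palpable tumor and outside the early neuroendocrine class differ between these ages when osteopontin is missing throughout.

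All 13 mice had the strain label B6.tgN (TRAMP)8247Ng Spp1<tm1Blh>/J and the genotype label Opn-/-_TRAMP, so neither age holds an OPN-competent control. TRAMP mice express the SV40 T antigens in prostate epithelium from part of the rat probasin promoter, which is switched on by androgen at puberty, so weeks of age are also weeks of transgene expression. The labels name prostate tissue, without a lobe. The early class had been set by clustering of expression over genes that separate neuroendocrine tumors from adenocarcinomas. Neuroendocrine levels in these 13 prostates therefore depend in part on how they were chosen. Spp1 itself, the gene of osteopontin, matched no named probe, and its deletion was not checked here.

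In TRAMP prostates the T antigens bind and inactivate the Rb and p53 proteins, and the epithelium passes through hyperplasia and intraepithelial neoplasia before adenocarcinoma. Mouse prostate lobes are glands of luminal secretory cells over a thin layer of basal cells, wrapped in smooth muscle and fibroblasts, and they lie against the seminal vesicles, fat and the striated muscle of the urethra. Osteopontin is a secreted matrix glycoprotein that binds integrins and CD44 and is made by epithelium, macrophages and other stromal cells.

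The prostate label was set against its defining markers. Krt8 and Krt18, the luminal keratins, Tgm4, the prostate transglutaminase, and Pbsn, probasin, were detected on all 13 arrays, and Krt8 averaged 14.87 ± 0.24 log2 units in OPT18 and 14.83 ± 0.13 in OPT15 (SD, n = 9 and 4). Hoxb13, a homeobox factor of the prostate, was detected on 6 of 13 arrays. Genes of other tissues were detected as well. The seminal vesicle genes Svs2, Svs4, Svs5 and Svs6 and the skeletal muscle actin Acta1 were detected on all 13 arrays, and the B cell gene Cd79b on 0 of 13. In tissue samples of this kind, fewer cells of a type and less RNA per cell cannot be told apart.

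A pair of the 4 OPT15 arrays stood apart from all the rest. On the first principal component, which held 38.6% of the variance, OPT15_3020 and OPT15_3022 scored 38.4 and 35.7, against -12.8 to 3.8 for the other 11 arrays and -19.8 to 6.7 for the 16 arrays of the other groups. These mice correlated with each other at r = 0.989 across genes, and with the other 11 at 0.959 to 0.975, whereas the other 11 ran from 0.976 to 0.995 among themselves. OPT15_2956 and OPT15_2962, from chips 1 and 2, correlated at 0.994. Both outlying mice were on chip 3 (the chips are read from the array names in the labels), and the only other array of the comparison on that chip, OPT18_1323, scored 3.8. The share of detected probes was 38.7% for OPT18_1323 and 39.4% and 39.5% for OPT15_3020 and OPT15_3022, and it was 47.1% to 50.7% on chips 1 and 2. On chip 4 it was 40.1% and 40.2% for OPT18_1322 and OPT18_450, which scored -10.0 and -8.1 on this component, so a low share of detected probes was not particular to the outlying pair. The plot of principal components shows the pair far to the right of every other mouse.

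**Figure D1:**
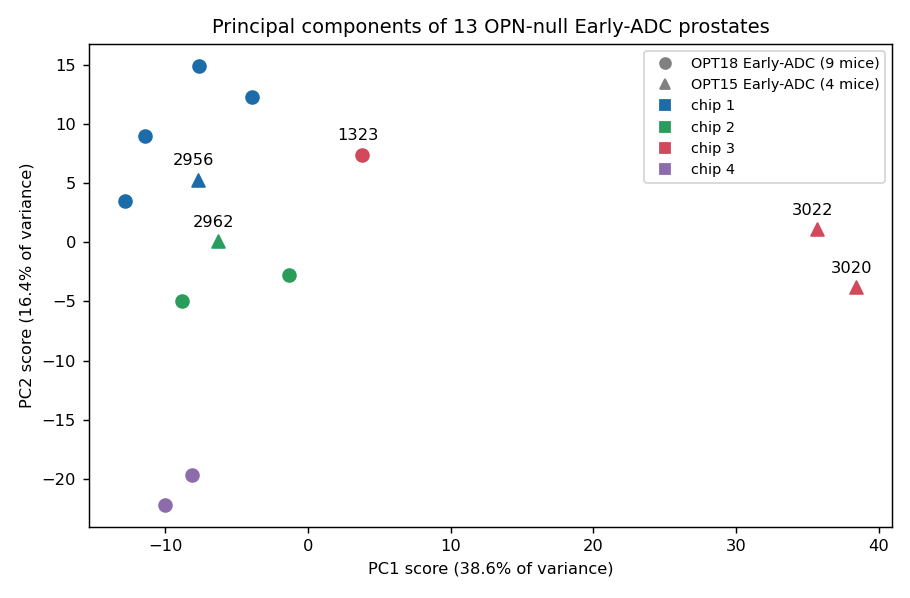
First against second principal component of log2 signals over 10768 genes in 9 OPT18 (circles) and 4 OPT15 (triangles) Early-ADC prostates, with 1 symbol per mouse and colors for the chips. OPT15_3020 and OPT15_3022 scored 38.4 and 35.7 on the first component, while OPT15_2956 and OPT15_2962 lay among the OPT18 mice.

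Both of these OPT15 mice lay above all other 11 arrays for 1597 genes (14.8%) and below all of them for 1944 (18.1%). Anpep, an aminopeptidase of secretory epithelium, stood at 12.87 and 12.41 log2 units in OPT15_3020 and OPT15_3022 and at 10.19 to 10.79 in the other 11. Bcat2, a mitochondrial enzyme of branched-chain amino acid breakdown, stood at 12.17 and 12.19, against 10.10 to 10.79. On the low side were genes of skeletal muscle and fat. Myl1, a fast-muscle myosin light chain, stood at 10.83 and 11.17 in this pair and at 12.61 to 15.17 elsewhere, and Adipoq, the adipocyte hormone adiponectin, at 9.39 and 10.50 against 11.01 to 12.23. The part of this pair in each result is therefore shown by values over all 13 mice, with the chip as a block, and without the pair. Values of the 4 OPT15 mice always follow the order OPT15_2956, OPT15_2962, OPT15_3020 and OPT15_3022, and signals are on the log2 scale.

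No gene was called between the ages. In limma, 0 of 10768 genes (0%) met both thresholds, an adjusted p under 0.05 and a 2-fold difference, and the lowest adjusted p was 0.1771. At an unadjusted p under 0.05, 2151 genes passed, 1165 of them higher in OPT18 (10.8% of genes tested) and 986 lower (9.16%), a split of 54.2% higher that became 90.8% when array medians were set equal in place of quantile normalization. A fixed chip block left 503 genes (4.67%) higher and 403 (3.74%) lower at that level, and the lowest adjusted p was 0.311. The block kept 668 of the same genes in the same direction, which is 31.1% of the genes without the block and 73.7% of those with it. Without OPT15_3020 and OPT15_3022, 206 genes passed (1.91%), 50 of them higher and 156 lower in OPT18. Of these 206, 63 were shared with the full comparison, and the lowest adjusted p was 1. Counts in the gene lists below stand beside the share of all genes in the same fit.

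The number of genes past the thresholds turned on single OPT15 mice. Without OPT15_2956, 485 genes passed an adjusted p of 0.05 in limma, 266 higher and 219 lower in OPT18, and 17 of them also reached a fold change of 2. Of these 485 genes, 475 (97.9%) were genes for which both OPT15_3020 and OPT15_3022 lay outside the range of the other 11 arrays, a property of 32.9% of all genes. Without OPT15_3020 or OPT15_3022 no gene passed the adjusted threshold, and 727 and 747 genes had an unadjusted p under 0.05. All genes below are therefore given as measured differences that did not pass the test over 13 mice.

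Fos was the gene with the lowest p, and its groups did not overlap. Fos encodes a subunit of the AP-1 transcription factor and is transcribed within minutes of growth factor, stress or tissue handling. It ran from 10.13 to 11.41 log2 units in OPT18 (median 10.90) and stood at 9.85, 10.04, 8.97 and 9.18 in the 4 OPT15 mice. Every OPT18 mouse was above every OPT15 mouse, with OPT18_1323 closest to the younger group. The log2 fold change was 1.32 ± 0.22 (SE), with an adjusted p of 0.1771 in limma. It was 1.02 with the chip as a block (adjusted p = 0.311 in limma) and 0.88 without OPT15_3020 and OPT15_3022, where it did not pass either. Within chips 1, 2 and 3 the difference was 1.01, 0.99 and 1.06 log2 units, so it was as large on chips 1 and 2 as on the chip of the outlying pair. Without OPT15_2956 the log2 fold change was 1.43 and the gene passed at an adjusted p of 0.04118 in limma. In that fit the outlying pair made up most of the OPT15 group. Without OPT15_3020 or without OPT15_3022 it did not pass, and the lowest adjusted p of any gene was 0.6663 and 0.6658. In a fit of the 18 early OPN-/-TRAMP arrays with early class as a term, the log2 fold change of Fos was 1.13 at an adjusted p of 0.04042. Fos was the only gene there to meet both thresholds.

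Cdkn2a, which encodes a D-cyclin kinase inhibitor and the p53 stabilizer Arf, was the other leading gene. It ran from 10.80 to 11.28 log2 units in OPT18 (median 11.12) and stood at 10.52, 10.51, 10.06 and 9.60 in the 4 OPT15 mice. The groups did not overlap, and OPT15_3020 and OPT15_3022 lay lowest. The log2 fold change was 0.87 ± 0.15 (SE, adjusted p = 0.1771 in limma), 0.75 with the chip as a block and 0.53 without this pair. A second probe gave 0.35, and its values overlapped, with a lowest OPT18 value of 9.69 and a highest OPT15 value of 9.77. Within chips 1, 2 and 3 the difference was 0.57, 0.54 and 1.19.

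The other groups of the series show the range of Cdkn2a in this model. It stood at 11.08 to 11.72 in the 4 OPT18 Early-NE prostates, at 11.39 in the OPT15 Early-NE prostate, at 12.07 to 12.41 in 3 macroscopic neuroendocrine tumors (OPT-tm), at 12.67 to 12.997 in 30 wks old TRAMP prostates (T30, n = 4) and at 10.71 to 11.74 in 18 wks old ones (T18, n = 4). OPT15 Early-ADC prostates thus held the lowest values of the series for this gene. Fos in the other groups ran from 9.93 in the OPT15 Early-NE prostate to 11.65 in OPT-tm, and its lowest values were again those of OPT15_3020 and OPT15_3022. The plot over 7 groups shows both genes.

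**Figure D2:**
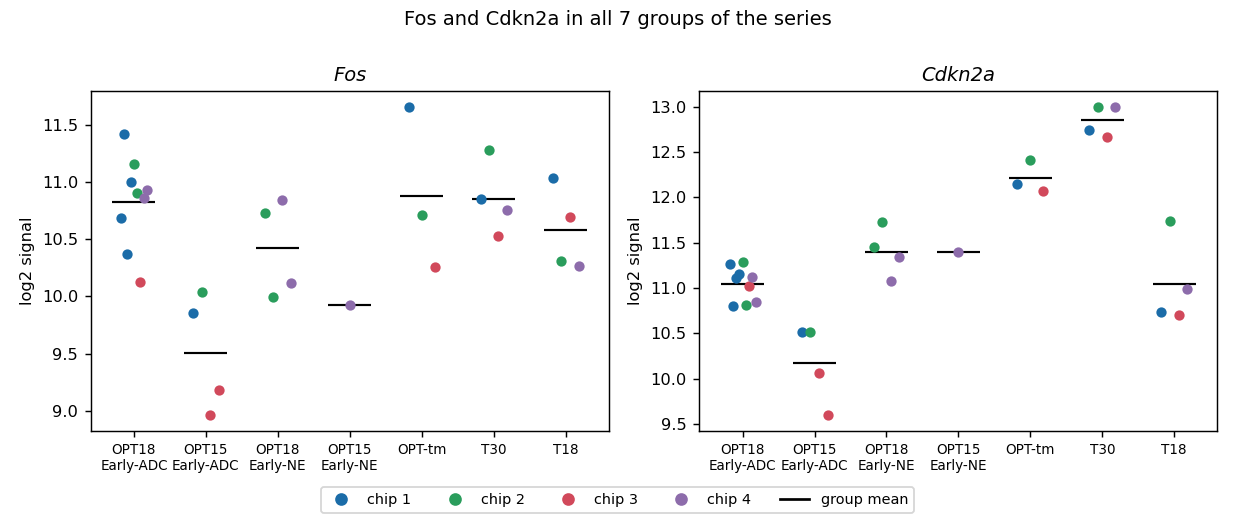
Log2 signal of Fos and Cdkn2a in each prostate of the 7 groups, with colors for the chips and a line at each group mean. Cdkn2a lay at 10.80 to 11.28 in OPT18 Early-ADC and at 9.60 to 10.52 in OPT15 Early-ADC, both below the 12.67 to 12.997 of T30.

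Across all genes, groups did not overlap for 23 genes higher in OPT18 (0.214%) and 28 genes lower (0.26%). Those with a fold change of at least 1.5 were Fos, Cdkn2a and Fgl2 on the high side and Scly on the low side. Fgl2, a fibrinogen-like protein of macrophages and T cells, ran from 9.08 to 9.60 in OPT18 (median 9.28) and stood at 9.05, 9.06, 8.39 and 8.20 in the 4 OPT15 mice, where it was detected on 2 of 4 arrays. Its log2 fold change was 0.64, and 0.26 without OPT15_3020 and OPT15_3022. Scly, the selenocysteine lyase, ran from 9.762 to 9.999 in OPT18 (median 9.882), against 10.01, 10.16, 11.10 and 10.96 in the same OPT15 mice. Its log2 fold change of -0.69 became -0.22 without the pair, and within chips 1, 2 and 3 it was -0.18, -0.20 and -1.15. For Fgl2 and Scly most of the difference was carried by OPT15_3020 and OPT15_3022.

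A few genes without overlap differed by about as much when these mice were left out, and they are named here after their values were seen. Krt5, a keratin of basal cells, ran from 8.56 to 9.59 in OPT18 (median 9.44), against 9.84, 9.94, 9.80 and 9.84 in the 4 OPT15 mice. The 4 OPT15 mice lay close together, above every OPT18 mouse. The log2 fold change was -0.58 ± 0.17 (SE, adjusted p = 0.1895 in limma), -0.47 with the chip as a block and -0.62 without the pair. Basal genes as a list did not go one way. Of 15 genes, 1 was higher (6.67%) and 2 lower (13.3%) at an unadjusted p under 0.05, beside 10.8% and 9.16% of all genes. A positive difference was seen in 6, and the median was -0.075. With array medians set equal it was 0.18, beside 0.139 over all genes. Dkk3, a secreted protein of the Dickkopf family, was the basal gene on the high side, at 0.39 and at 0.18 without the pair. Lrrc52, a subunit of potassium channels, differed by -0.51, -0.41 and -0.54 in these fits, and its OPT15 values lay between 10.25 and 10.35. Acat1, a mitochondrial thiolase of ketone and isoleucine metabolism, differed by 0.29 and 0.28 without the pair, and it was detected on 6 of 9 OPT18 and 0 of 4 OPT15 arrays. Tnfrsf10b, the mouse TRAIL death receptor, differed by -0.43 in both fits. The dot plot of 8 genes sets beside each other Krt5, whose OPT15 mice lay together, and Scly, whose OPT15 mice split by chip.

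**Figure D3:**
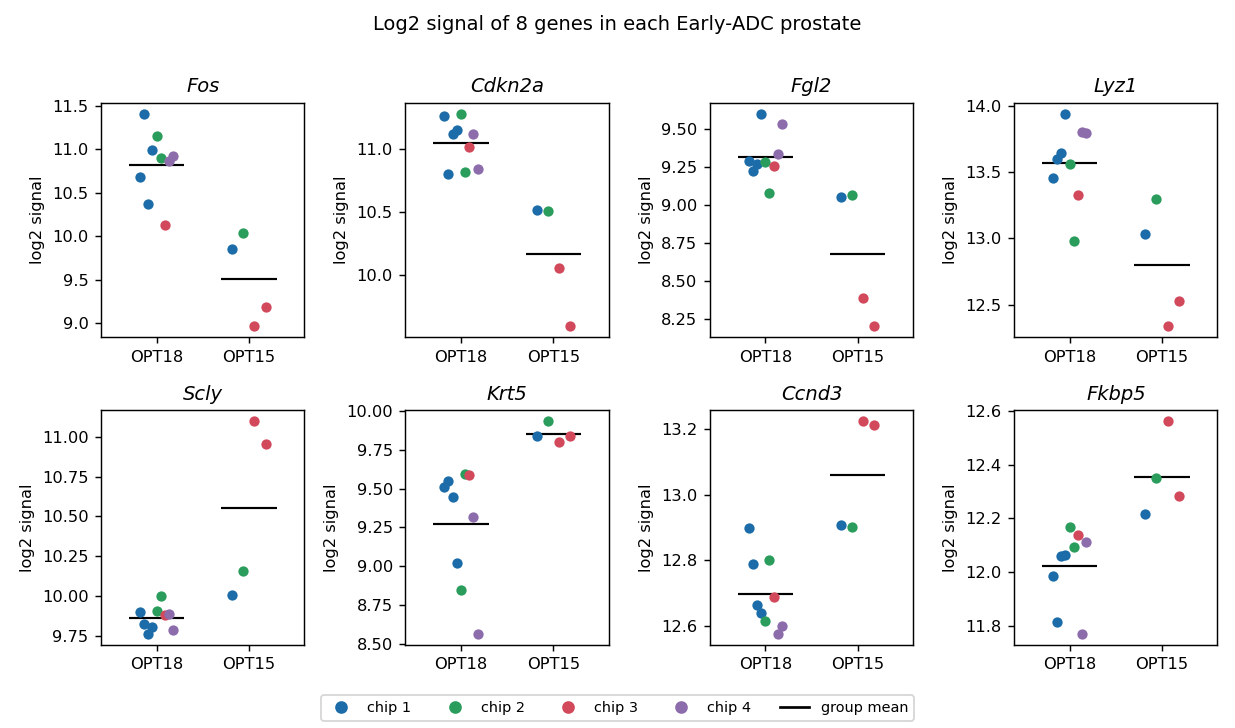
Log2 signal of 8 genes in each of the 9 OPT18 (left) and 4 OPT15 (right) Early-ADC prostates, with colors for the chips and a line at each group mean. Groups overlapped for Lyz1 only. The OPT15 points of chip 3 lay farthest from OPT18 for Fos, Cdkn2a, Fgl2, Lyz1, Scly and Ccnd3. They did not for Krt5, and for Fkbp5 only OPT15_3020 did.

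Genes of macrophages and antigen presentation held the highest share, among the 35 lists, of genes that were higher in OPT18 at an unadjusted p under 0.05. Of 22 genes tested, 11 were higher in OPT18 at that level, none was lower, and 21 had a positive difference, beside the 10.8% of all genes that were higher. The list median was 0.287, beside a median of 0.007 over all genes. The chip block left 4 genes higher, beside 4.67% of all genes, and a median of 0.209. Without OPT15_3020 and OPT15_3022, 1 gene was higher, beside 50 of all 10768 genes, and the median was 0.238. The median thus kept its sign in each fit while fewer genes reached that level. With array medians set equal it was 0.511, in a setting that also moved the median of all genes up, to 0.139. Within chips 1, 2 and 3 it was 0.312, 0.013 and 0.274.

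Lyz1 and Lyz2, the lysozymes, had the lowest p of this list. Lyz2, the macrophage form, ran from 10.82 to 11.96 in OPT18 (median 11.47), against 11.02, 10.97, 10.40 and 10.54 in the 4 OPT15 mice. Its log2 fold change was 0.73 (adjusted p = 0.1895 in limma) and 0.47 without the pair. Lyz1 had a log2 fold change of 0.77 and 0.40 without the pair, and since the lysozyme genes are near-identical in sequence their probes may share target RNA. Among OPT18 mice only OPT18_2967, at 12.98 for Lyz1, lay within the OPT15 range of 12.34 to 13.30. Adgre1, a surface receptor that marks tissue macrophages, ran from 9.47 to 10.56 in OPT18 (median 10.35), against 9.80, 9.63, 9.29 and 8.52 in OPT15. Other members at that level were the scavenger receptors Mrc1 (0.58) and Cd163 (0.75), the complement components C1qb (0.44) and C1qc (0.30), the MHC class II chain H2-Aa (0.65), Ms4a7 (0.38), the lysosomal protein Laptm5 (0.33) and the protease Lgmn (0.28). Cd74, the class II invariant chain, differed by -0.04 (0.28 with array medians set equal) and H2-Ab1 by 0.17, and neither reached that level. Of the defining markers Cd68 and Csf1r, neither had a tested probe.

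Other leukocyte lists had fewer genes at that level. Of 13 neutrophil and innate inflammation genes 12 had a positive difference and 1 reached it, with a median of 0.113. Among 9 genes of T and NK lymphocytes 1 was higher (11.1%) and 0 lower, with a median of 0.016. Among 28 interferon response genes 1 was higher (3.57%) and 2 lower (7.14%). Of all genes 10.8% were higher and 9.16% lower. Cxcl10, an interferon-induced chemokine, differed by -0.46 and by -0.35 without the pair, with 9.11 to 9.82 in OPT18 and 10.06, 9.42, 9.996 and 9.93 in the 4 OPT15 mice. The dot plot of list levels gives the macrophage list beside muscle, fat and seminal vesicle.

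**Figure D4:**
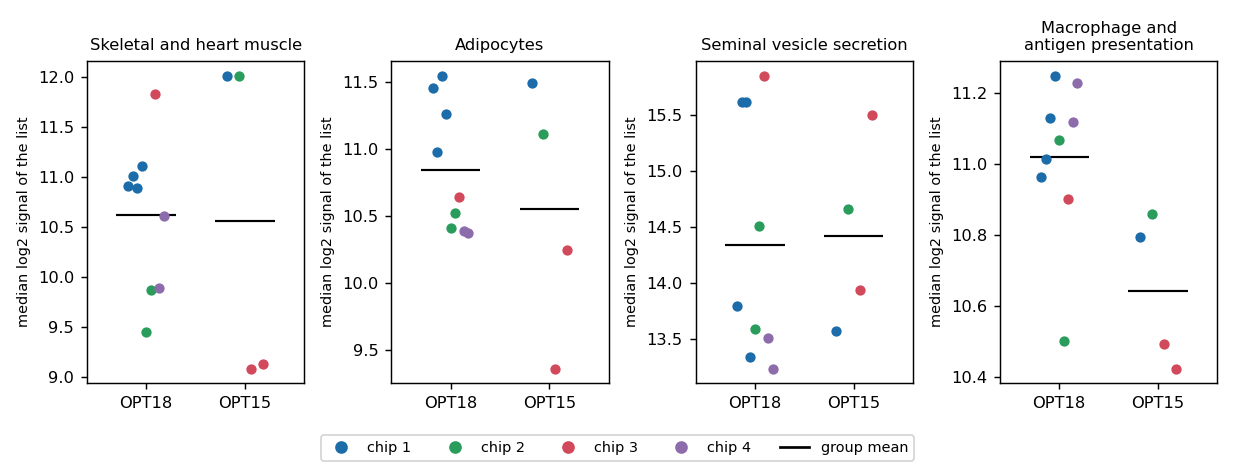
Median log2 signal of 4 gene lists in each of the 9 OPT18 (left) and 4 OPT15 (right) Early-ADC prostates, with colors for the chips and a line at each group mean. Muscle levels of OPT18 lay between 9.45 and 11.82, while those of OPT15 split into 12.01 and 12.01 (OPT15_2956 and OPT15_2962) and 9.08 and 9.13 (OPT15_3020 and OPT15_3022).

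Striated muscle genes split the OPT15 mice. The median level over 19 skeletal and heart muscle genes ran from 9.45 to 11.82 in OPT18 (median 10.88), and it was 12.01 in both OPT15_2956 and OPT15_2962 and 9.08 and 9.13 in OPT15_3020 and OPT15_3022. The OPT15 mice thus lay above and below all OPT18 mice at the same time. In limma over all 13 mice 0 of 19 genes had an unadjusted p under 0.05 in either direction, with a median of 0.141. Without OPT15_3020 and OPT15_3022, 17 of 19 were lower in OPT18, with a median of -1.032. Within chips 1, 2 and 3 the median difference was -0.767, -1.833 and 2.517. Tnni2, the fast troponin I, ran from 10.71 to 13.19 in OPT18, against 13.32, 13.38, 9.85 and 9.77 in the 4 OPT15 mice. The median level of 11 adipocyte genes ran from 10.37 to 11.55 in OPT18, against 11.49, 11.12, 9.36 and 10.25 in the 4 OPT15 mice. The part of muscle and fat RNA in other gene differences was not tested.

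Seminal vesicle secretory genes varied widely from mouse to mouse within both ages. Svs1, a secretory protein of the seminal vesicle, ran from 9.86 to 15.68 in OPT18 (median 11.72) and stood at 9.55, 10.17, 11.01 and 14.87 in the 4 OPT15 mice. High values were those of OPT18_1323, OPT18_1329, OPT18_1328 and OPT18_1327 (15.68, 15.20, 15.08 and 13.43) and of OPT15_3022. Sva and Svs3a were highest in OPT18_1323, OPT18_1328 and OPT18_1329, and OPT15_3022 was the one OPT15 mouse in which each was detected. Over all 13 mice none of the 11 genes had an unadjusted p under 0.05, beside 20% of all genes. With the chip as a block 5 were higher in OPT18, beside 4.67% of all genes, with Svs1 at 2.53. Svs2, Svs4 and Svs5 stood at 14.72 or more on every array, close to the top of the signal scale, where differences between mice are compressed or lost. Without OPT15_3020 and OPT15_3022 none of the 11 reached that level, beside 1.91% of all genes, and the list median was 0.070.

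S phase and mitosis genes were more often higher than lower in OPT18 over all 13 mice. None of them had an unadjusted p under 0.05 without the outlying pair, where 1.91% of all genes did. Among 25 G2 and mitosis genes 9 were higher (36%) and 0 lower at an unadjusted p under 0.05, with a median of 0.105. Among 28 S phase genes 8 were higher (28.6%) and 1 lower, with a median of 0.139, beside 10.8% of all genes higher and 9.16% lower. With the chip as a block the counts of higher genes were 3 and 3, beside 4.67% of all genes. Without OPT15_3020 and OPT15_3022 they were 0 and 0, beside 50 of all 10768 genes, with medians of 0.050 and 0.051. Mcm6, a subunit of the replicative helicase, ran from 13.16 to 13.91 in OPT18 (median 13.76), against 13.66, 13.53, 12.40 and 12.60 in the 4 OPT15 mice. The difference was 0.64, and 0.10 without the pair. Ndc80, a kinetochore protein, kept more of its difference, with 0.33 and 0.21.

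Cyclins and their regulators went both ways. Of 25 genes, 5 were higher (20%) and 4 lower (16%) at an unadjusted p under 0.05, beside 10.8% and 9.16% of all genes. Ccnd1, cyclin D1, ran from 13.07 to 13.94 in OPT18 (median 13.52), against 13.74, 14.00, 14.38 and 15.06 in the 4 OPT15 mice. Its log2 fold change was -0.76 ± 0.21 (SE, adjusted p = 0.1895 in limma), -0.46 with the chip as a block and -0.33 without the pair, and 2 further probes gave -0.54 and -0.74. Ccnd3, cyclin D3, did not overlap between the ages, with 12.58 to 12.90 in OPT18 and 12.91, 12.90, 13.22 and 13.21 in OPT15, a log2 fold change of -0.36 and of -0.21 without the pair. OPT18_1327 and OPT15_2962 were next to each other in Ccnd3. E2f2, a transcription factor of S phase genes, differed by -0.40 and Ccne2, cyclin E2, by 0.40. Without the pair they differed by -0.08 and 0.02, and a second detected probe of E2f2 gave -0.24 over all 13 mice.

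Immediate early genes were more often higher than lower in OPT18 over all 13 mice. Of 22 genes, 7 were higher at an unadjusted p under 0.05 (31.8%, beside 10.8% of all genes) and 2 lower (9.09%, beside 9.16%). The median was 0.144. With the chip as a block 3 were higher, beside 4.67% of all genes. Without OPT15_3020 and OPT15_3022 1 was higher, beside 50 of all 10768 genes, and the median was 0.058. Egr1, a zinc finger factor induced with Fos, ran from 13.22 to 14.27 in OPT18 (median 13.82), against 13.63, 13.23, 13.07 and 13.27 in the 4 OPT15 mice. Egr1 differed by 0.50, and by 0.38 without the pair. Klf6, Dusp6 and Socs3 differed by 0.61, 0.53 and 0.58, and by 0.35, 0.26 and 0.37 without the pair. Junb and Jund, partners of Fos in AP-1, ran the other way over all mice, by -0.45 and -0.37, with high values in OPT15_3020 and OPT15_3022. Junb ran from 10.39 to 10.91 in OPT18, against 10.58, 10.57, 11.70 and 11.66 in the 4 OPT15 mice, and without the pair its difference was 0.11. Fosb differed by -0.14 and Atf3 by 0.21, and neither reached that level.

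Androgen response genes were more often lower than higher in OPT18. Of 14 genes, 1 was higher and 6 lower at an unadjusted p under 0.05, beside 9.16% of all genes lower, with a median of -0.115. With the chip as a block 3 were lower (median -0.109), beside 3.74% of all genes. Without OPT15_3020 and OPT15_3022 1 was lower (median -0.137), beside 156 of all 10768 genes. With array medians set equal the list median was 0.030, beside 0.139 over all genes. Fkbp5, a cochaperone induced by androgens and glucocorticoids, did not overlap between the ages. It ran from 11.77 to 12.17 in OPT18 (median 12.06) and stood at 12.22, 12.35, 12.56 and 12.28 in the 4 OPT15 mice. Its log2 fold change was -0.33 ± 0.10 (SE, adjusted p = 0.1895 in limma), -0.25 with the chip as a block and -0.26 without the pair. Within chips 1, 2 and 3 it was -0.24, -0.22 and -0.29. The kallikreins Klk1b27 and Klk1b24, members of a family of near-identical genes whose probes may share target RNA, differed by -0.37 and -0.30, and by -0.32 and -0.27 without the pair. Tmprss2, a luminal serine protease, differed by -0.32 and -0.15. Pbsn, whose promoter drives the transgene, differed by 0.19, with 10.27 to 12.00 in OPT18 and 11.15, 10.68, 10.65 and 11.02 in OPT15. Of 25 luminal secretion and identity genes 1 was higher (4%) and 4 lower (16%), beside 10.8% and 9.16% of all genes. Foxa1, a pioneer factor of luminal epithelium, was among the 4 lower, at -0.35 and -0.16 without the pair. Mmp7, the secreted protease matrilysin, differed by 0.84 and by 0.33 without the pair, with its highest OPT18 values of 13.05 and 12.95 in both mice of chip 4.

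Stromal genes were split. Of 26 fibroblast and collagen genes, 9 were higher (34.6%) and 5 lower (19.2%) at an unadjusted p under 0.05, beside 10.8% and 9.16% of all genes. With the chip as a block 2 of them were higher and 3 lower, beside 4.67% and 3.74% of all genes. Without OPT15_3020 and OPT15_3022 none was either. Lox, the collagen cross-linking enzyme, differed by 0.76, with 10.07 to 11.59 in OPT18 (median 10.54), and 10.23, 10.04, 9.70 and 9.46 in the 4 OPT15 mice, and by 0.48 without the pair. Mfap4, a microfibril protein, differed by -0.50 and -0.32. Of 17 endothelial genes 0 were higher and 4 lower (23.5%, beside 9.16% of all genes). The 4 were Eng, Vwf, Plvap and Mmrn2, the same as with the chip block, where 3.74% of all genes were lower. The list median was -0.086. It became 0.019 with array medians set equal, where the median of all genes was 0.139. Vwf, the von Willebrand factor, ran from 9.45 to 10.13 in OPT18 (median 9.78), against 10.17, 10.001, 10.52 and 10.70 in the 4 OPT15 mice. It differed by -0.56, by -0.39 with the block and by -0.29 without the pair. No endothelial gene reached that level without OPT15_3020 and OPT15_3022, where 1.91% of all genes did.

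Neuroendocrine genes were low in both groups beside OPT-tm, which depends in part on how these prostates were chosen. The median level of the list ran from 8.24 to 9.35 in OPT18 and from 8.41 to 8.53 in OPT15. It was 9.29 to 10.65 in OPT18 Early-NE prostates, which the OPT18 range overlapped. In OPT-tm it was 10.8 to 11.4, and in T30 it was 7.99 to 8.13, below both groups. Syp, synaptophysin of secretory vesicles, ran from 9.63 to 10.70 in OPT18 (median 10.09) and stood at 10.25, 9.98, 10.43 and 10.48 in the 4 OPT15 mice, against 10.87 to 12.00 in OPT18 Early-NE prostates and 13.78 to 14.07 in OPT-tm. Ddc, aromatic amino acid decarboxylase, ran from 9.80 to 11.20 in OPT18 (median 10.01) and stood at 10.20, 9.90, 9.51 and 10.21 in OPT15. OPT18_1323, OPT18_1329 and OPT18_1330, at 11.20, 11.12 and 11.02, lay nearest to the 11.35 of the OPT15 Early-NE prostate. Over all 13 mice 2 of 22 genes were higher (9.09%) and 1 lower (4.55%) at an unadjusted p under 0.05. Of all genes 10.8% were higher and 9.16% lower. The list median was 0.069. With the chip as a block 9 of the 22 were higher, beside 4.67% of all genes, with a median of 0.202. Within chips 1, 2 and 3 the median was 0.184, 0.031 and 0.705. It was thus widest on chip 3, where OPT18 is OPT18_1323 alone. Elavl4, a neuronal RNA-binding protein from the list of synapse genes, stood at 7.82 to 9.84 in OPT18 and 7.76 to 8.12 in OPT15, where it was detected on 0 of 4 arrays.

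TGFβ pathway genes, a pathway the study followed at the protein level, showed no common direction. Of 27 genes 4 were higher (14.8%) and 5 lower (18.5%) at an unadjusted p under 0.05, beside 10.8% and 9.16% of all genes. The list median was 0.031. Tgif1, a corepressor of Smads, differed by 0.68 and by 0.24 without OPT15_3020 and OPT15_3022. Tgfb1, the ligand, differed by -0.46 and by -0.09 without the pair, with 8.36 to 8.73 in OPT18 and 8.64, 8.67, 9.29 and 9.49 in the 4 OPT15 mice. The receptors Tgfbr1, Tgfbr2 and Tgfbr3 differed by -0.06, 0.06 and -0.12 (0.26 for Tgfbr1 and 0.19 for Tgfbr3 with array medians set equal). A second Tgfbr1 probe, detected on 10 of 13 arrays, gave 0.43 and had an unadjusted limma p under 0.05, so the probes of this gene disagree, while second probes of Tgfbr2 and Tgfbr3 gave -0.02 and -0.14. Smad2 and Smad3 differed by 0.03 and -0.40. Smad3 differed by -0.03 without the pair. Of 6 genes of osteopontin receptors and related matrix proteins, 1 was lower at that level (16.7%, beside 9.16% of all genes) and 0 higher. The lower gene was Itga5, a chain of the fibronectin receptor, with -0.84 and, without the pair, -0.40. Cd44 and Itgb1 differed by 0.11 and 0.03. Trp63, the basal transcription factor, differed by -0.08 (0.18 with array medians set equal), and Cdh2, N-cadherin, was detected on no array of either age.

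Secreted defense proteins of epithelium were higher in 5 of 23 cases (21.7%, beside 10.8% of all genes) and lower in 0 at an unadjusted p under 0.05. This list shares Lyz1 and Lyz2 with the macrophage list. Its median was 0.072, and 0.008 with the chip as a block, where 4 were higher. Without OPT15_3020 and OPT15_3022 none was higher, beside 50 of all 10768 genes, and the median was -0.020. Tff3, an intestinal-type trefoil peptide, ran from 9.08 to 10.38 in OPT18 (median 9.76), against 9.27, 9.31, 8.06 and 7.82 in the 4 OPT15 mice, where it was detected on 2 of 4 arrays. Tff3 differed by 1.08 on the log2 scale, 0.94 with the chip as a block and 0.41 without the pair. Ribosomal protein genes had 2 of 20 higher (10%, beside 10.8% of all genes) and 0 lower (beside 9.16%), with a median of -0.040. Of 30 oxidative phosphorylation genes 8 were higher (26.7%, beside 10.8% of all genes) and 3 lower (10%, beside 9.16%). Their median was 0.029, near the 0.007 of all genes. With the chip as a block 1 of them was higher and 2 lower, beside 4.67% and 3.74% of all genes. Without OPT15_3020 and OPT15_3022 none was either, beside 1.91% of all genes. The plot of list medians sets the 3 fits side by side.

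**Figure D5:**
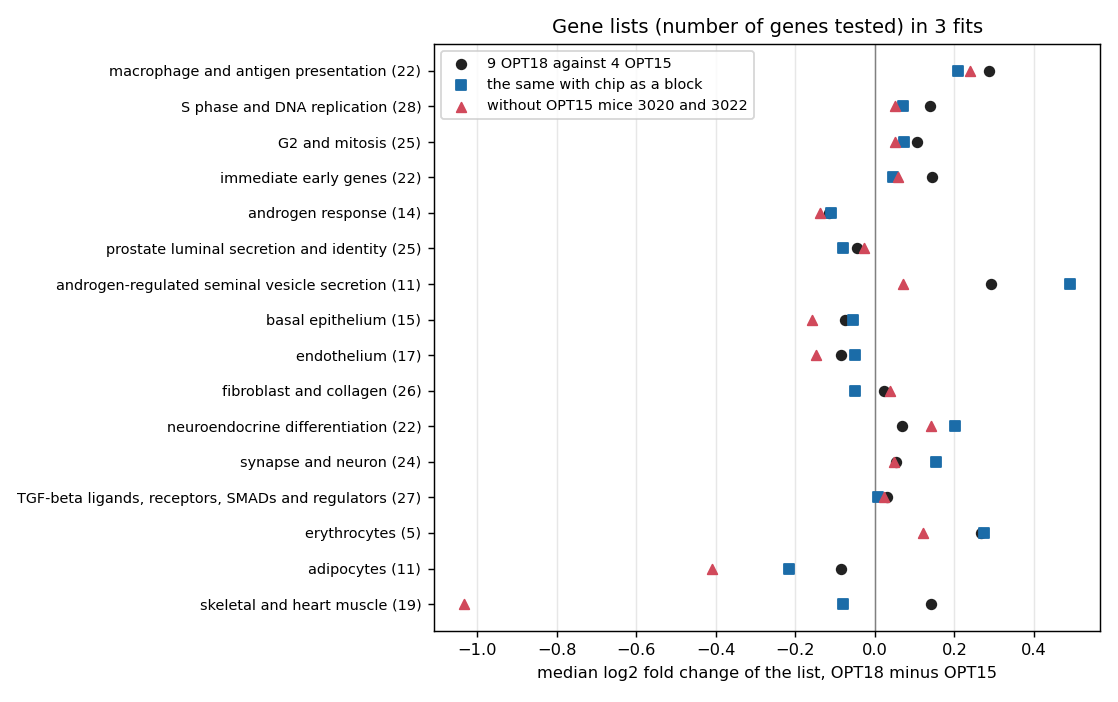
Median log2 fold change, OPT18 minus OPT15, of 16 gene lists over all 13 mice (circles), with the chip as a block (squares) and without OPT15_3020 and OPT15_3022 (triangles), with the number of genes tested in parentheses. The macrophage list stayed between 0.209 and 0.287, whereas the muscle list stood at 0.141 over all mice and at -1.032 without the pair.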

How the data were processed

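Single-color Illumina MouseRef-8 bead arrays measured RNA, with 1 array per mouse. The authors deposited non-normalized BeadStudio output, in which every probe has a bead signal intensity and a detection p-value, together with log2 values that they had made by robust spline normalization in lumi (version and genome build not given in the sources used here). For the main fit, the log2 of the non-normalized signals was quantile normalized across 29 arrays (R 4.3.3). Background was not subtracted, which compresses differences of dim genes. The authors' log2 values entered only as an alternative setting. A gene was tested if a probe was detected at p under 0.01 on 1 array or more, as in the study's methods. Its value was that of the probe with most detections, which gave 10768 genes. OPT18 was set against OPT15 in limma 3.58.1 with Benjamini-Hochberg adjustment, and the thresholds were 0.05 for the adjusted p and 2 for the fold change. The fit was tested on simulated data. The 35 gene lists (651 genes tested) are described by counts and medians, with no set test. Members and lists were chosen with earlier results of these data known. Genes named are those of lowest p with a fold change of 1.5 or more and no overlap, the 2 highest and 2 lowest of each list, genes the study names, and examples from the lists picked after their values were seen. No 2 arrays held identical values. The number of arrays limits the precision, and p-values measure the spread between mice. Another background correction, scaling, filter, probe choice or chip model, and leaving out each mouse, were tried.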

Additional observations from a re-analysis of the deposited data

Results flagged for a closer look

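Among 186 groups of values of genes named above and array measures, 16 had 1 mouse far from the rest of its group (8.6%, where chance gives about 1 in 20). In OPT18, 4 of these were OPT18_1323, the one OPT18 array on chip 3. It was low in Mcm6 (13.161, others 13.588 to 13.909), Klf6 (12.54, others 13.193 to 13.709) and Smad3 (9.59, others 9.936 to 10.269), and high in E2f2 (10.909, others 10.17 to 10.474). In Klf6, Mcm6 and E2f2 its value lay on the side of OPT15_3020 and OPT15_3022, while in Smad3 it lay on the opposite side.

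OPT18_1325 was low in Acta1 (14.499, others 14.975 to 15.411) and in Tgm4 (15.572, others 15.892 to 16.103), and its median signal intensity of 460 was above the 303.3 to 362.5 of the others. OPT18_1322 was low in Foxa1 (13.636), OPT18_2967 in C1qc (10.707) and OPT18_450 in Svs4 (15.32).

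In OPT15, OPT15_3022 was high in the seminal vesicle genes Sva (9.804, others 7.829 to 7.997) and Svs3a (11.318, others 7.886 to 8.248), in Itgb1 (10.243) and in Cd79b (8.565), the last of which was not detected. OPT15_2962 was low in Tgm4 (15.88) and had a median signal intensity of 356.8. What sets these mice apart was not tested.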

How the results depend on the processing

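Over 19 other settings and with each of the 13 mice left out, the count of called genes stayed at 0, except for 1 gene in the 18-array fit with class as a term and a range of 0 to 17 with 1 mouse left out (17 without OPT15_2956). The 2151 genes with an unadjusted p under 0.05 became 714 with array medians set equal, 906 with the chip as a fixed block, 833 on chips 1 to 3 with the block, 274 without chip 3, 740 with array weights, and 206 without OPT15_3020 and OPT15_3022 (chosen after seeing the data). With 1 mouse left out they ran from 727 (without OPT15_3020) to 3056 (without OPT15_2956), with 747 without OPT15_3022. Setting array medians equal moved the median of all genes to 0.139, against 0.007, and 90.8% of the genes at that level were then higher in OPT18, against 54.2%. Under it Cldn3 (-0.28 with quantile normalization), Fen1, Cox6a1, Sdhc and Gapdh changed sign, to 0.035, 0.083, 0.052, 0.027 and 0.027, so negative differences as large as that of Cldn3 have no settled direction. Without chip 3, Junb, Jund and Smad3 stood at 0.127, 0.062 and 0.021. Without OPT15_3020 and OPT15_3022, Junb, Jund and Nr1d2 stood at 0.108, 0.028 and -0.038. The cause of these changes was not tested. No paired analysis was possible because the mouse numbers are not shared between the ages. Chip 4 holds no OPT15 Early-ADC array, and chip 3 holds 1 OPT18 array, so the block rests on few mice.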

Other observations

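The single OPT15 Early-NE prostate (OPT15_2957) lies outside the comparison. It had a Cdkn2a level of 11.39, above all 4 OPT15 Early-ADC prostates (9.60 to 10.52), and a Fos level of 9.93, inside their range of 8.97 to 10.04. Its macrophage list level was 10.61, inside the OPT15 Early-ADC range of 10.42 to 10.86, and its neuroendocrine list level was 9.48, above their 8.41 to 8.53. With 1 mouse no comparison was made.

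When the 5 Early-NE prostates of both ages were added with class as a term, 9 genes passed an adjusted p of 0.05 in limma without a fold minimum. They were Fos (1.13), Lyz1 (0.79), Trim23 (0.65) and Tlcd5 (0.59), higher in OPT18, and Lman1l (-0.63), Ccdc85b (-0.52), Slc12a9 (-0.49), Slc10a3 (-0.45) and Taldo1 (-0.36), lower. Over the 13 Early-ADC prostates these genes had adjusted p-values of 0.1771 for Fos and 0.1895 for the others.

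Muscle, fat and seminal vesicle levels also varied outside the comparison. The muscle list stood at 10.73 to 12.26 in T18 and 10.30 to 11.72 in OPT18 Early-NE prostates, against 8.04 to 9.02 in OPT-tm and 8.19 to 8.53 in T30. The seminal vesicle list stood at 13.17 to 15.74 in T18 and 8.48 to 16.07 in T30, and at 7.85 to 8.38 in OPT-tm. These levels were not tested between groups.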
